A study of Urocitellus parryii with 3 samples.

Results

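miR-378a is a microRNA whose hairpin lies in an intron of Ppargc1b in human and mouse, and its 2 arms were followed here in liver of Urocitellus parryii. This arctic ground squirrel hibernates in bouts of deep torpor, with arousals between them. Reads were taken as miR-378a when they shared their first 18 bases with the mature miR-378a-3p or miR-378a-5p sequence, and each distinct read was counted once per stage. This rule found 3995 distinct reads of the 3p arm and 2 of the 5p arm, 3997 of the 576915 distinct reads in all. They stood for 56107 of 17086590 placed reads. The rule used sequence alone, with no measured level. Small RNA of 18 to 30 nt was sequenced in 3 libraries, 1 per stage, so no test between stages was possible and no p-value is given. Each ratio compares 2 libraries, and every interval is an exact 95% interval for counting error only, since PCR reads without molecular identifiers are not independent molecules.

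The early arousal library held mixed liver RNA of 4 animals. The late torpor library held that of another 4 animals, and the post-reproduction library that of 6 summer animals that were not hibernating. All animals were trapped in the wild in July and housed indoors, and neither age nor sex is given in the labels. Both hibernating groups carried temperature transmitters under a cycle of 4 h light and 20 h dark, had passed through at least 4 torpor bouts and were taken on day 4 of a bout. How that day applies to early arousal is not stated. Post-reproduction animals had 16 h light and 8 h dark and were anaesthetised with isoflurane, which is mentioned only for them. Season, light cycle, transmitter and anaesthesia therefore cannot be told apart in the comparisons with post-reproduction. Mixing the animals of a stage hides their spread, and in bulk tissue fewer cells of a type and less RNA per cell cannot be told apart.

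A microRNA hairpin is cut to a short duplex, of which one arm is kept in an Argonaute protein while the other is mostly degraded. The kept arm finds target mRNAs mainly through its seed, bases 2 to 8. Terminal nucleotidyl transferases can add A or U to the 3′ end of a mature microRNA. Ppargc1b encodes PGC-1β, a coactivator of genes of mitochondrial energy metabolism, and in mice miR-378a has been studied for its part in fat oxidation and in insulin signalling of the liver.

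Both arms were found on the plus strand of GeneScaffold 5150. The build of these scaffolds is not given in the sources used here. Shown with the seed in capitals are the 5p form, which rests on 2 reads, and the most frequent placed form of the 3p arm, next to the 3p form that starts 1 base later and so carries another seed. The last line is the scaffold DNA from 2 bases before the 3p start, with the listed 3p form in capitals.
miR-378a-5p: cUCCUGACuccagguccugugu
miR-378a-3p: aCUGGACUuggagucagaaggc
miR-378a-3p, start shifted by 1: cUGGACUUggagucagaaggc
scaffold run: gcACTGGACTTGGAGTCAGAAGGCctgag

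The 5p form covered bases 160792 to 160813 and the 3p form bases 160830 to 160851, with 16 bases between them. RNAduplex paired the 2 arms over 18 base pairs at -29.4 kcal/mol. No read was placed on the minus strand within 250 bases of the arms. The scaffold carries C after the last base of the 3p form, so an A or U added directly to that form was not read from this locus. The scaffolds carry no gene annotation in the data used. The RefSeq gene table of the species lists Ppargc1b as a protein-coding gene on another assembly, so whether GeneScaffold 5150 holds that gene was not tested.

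All 56105 reads of the 3p arm were placed at 5 positions, because a placed part of 18 bases occurs at each of them. The placed run reached 27 bases at GeneScaffold 5150, 23 at scaffold 158182 and 21 at each of the other 3 positions. Of the 3p reads, 94.0% had their longest placed run at GeneScaffold 5150 alone. A further 3.69% were tied with another position, and 2.29% ran longer elsewhere. By the longest run most 3p reads thus went with GeneScaffold 5150, while the tied reads could not be assigned. No 3p read was uniquely placed. Each of the 2 reads of the 5p arm was placed at 2 positions. The run at scaffold 158182 differs from the listed form only near its 3′ end.
run at scaffold 158182: actggacttggagtcagaagacc

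Depth and the share of 1 hepatocyte microRNA were similar in the 3 libraries, and markers of other cell types were not checked. The table held 5611673 placed reads from early arousal, 5860476 from late torpor and 5614441 from post-reproduction. The most abundant group of reads was placed on GeneScaffold 256 from base 347042 and begins uggagugugacaauggug, the sequence of the hepatocyte microRNA miR-122-5p in other mammals. It made up 72.4% of the placed reads in early arousal, 76.3% in late torpor and 74.9% in post-reproduction. Since no table of microRNA sequences was used, levels were scaled over 164 start groups, sets of reads that share their first 18 bases and have at least 1000 reads over the 3 libraries. The trimmed mean of M-values gave factors of 1.18 for early arousal, 0.856 for late torpor and 0.992 for post-reproduction. Levels are given as CPM, counts scaled to a fixed library size. Because the factors differ, 2 kinds of CPM stand side by side below, scaled CPM with these factors and placed CPM, in which counts are divided by all placed reads alone. Placed in place of scaled CPM moved every log2 ratio by 0.24 for early arousal against post-reproduction, -0.21 for late torpor against post-reproduction and 0.45 for early arousal against late torpor.

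miR-378a-3p, the arm kept in this liver, was lower in both hibernation libraries than in the summer library. It had 16230 reads in early arousal, 16619 in late torpor and 23256 in post-reproduction. Its level was 2536 scaled CPM in early arousal (2498 to 2576), 3389 in late torpor (3338 to 3441) and 4292 in post-reproduction (4237 to 4348). The 3 intervals did not overlap, with early arousal lowest and post-reproduction highest. Its level was 2892 placed CPM in early arousal, 2836 in late torpor and 4142 in post-reproduction. On that scale the hibernation libraries lay close together, both under the summer library. miR-378a-3p ranked 13th of the start groups by level in early arousal and 9th in late torpor and in post-reproduction.

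For early arousal against post-reproduction the ratio of scaled levels was 0.591 (0.579 to 0.603), a 1.69-fold lower level. On placed CPM it was 0.698, short of 1.5-fold. Of the 164 start groups, 24 were at least 1.5-fold lower in this comparison, or 14.6%, and miR-378a-3p was 1 of them on scaled CPM. On placed CPM 12 groups were. The 2-fold limit was passed by 5.49% of the groups and not by miR-378a-3p. The median log2 ratio of the start groups was 0.02, against -0.76 for miR-378a-3p, and 13 groups had a lower ratio. That order does not depend on the scaling, which moves all groups alike. The 164 groups include rare sequence variants of more abundant groups, so they are not all different RNAs. Without those variants 21 of 123 groups, or 17.1%, were at least 1.5-fold lower on scaled CPM.

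For late torpor against post-reproduction the ratio was 0.790 (0.774 to 0.805) on scaled CPM and 0.685 on placed CPM. Neither was 1.5-fold lower. Among the start groups, 16.5% were at least 1.5-fold lower and 11% at least 2-fold lower on scaled CPM. On placed CPM 36 groups were at least 1.5-fold lower, against 27 on scaled CPM. Their median log2 ratio was 0.05, against -0.34 for miR-378a-3p, and 37 groups had a lower ratio.

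For early arousal against late torpor the direction depended on the scaling. The ratio was 0.748 (0.732 to 0.765) on scaled CPM and 1.02 on placed CPM. At least 1.5-fold lower were 11.6% of the start groups and at least 2-fold lower 3.66%, and miR-378a-3p passed neither limit. On placed CPM 6 groups were at least 1.5-fold lower, against 19 on scaled CPM. The median log2 ratio of the groups was -0.08, against -0.42 for miR-378a-3p on scaled CPM, and 34 groups had a lower ratio. The comparisons with post-reproduction share that library, so their 2 ratios are not independent.

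**Figure D1:**
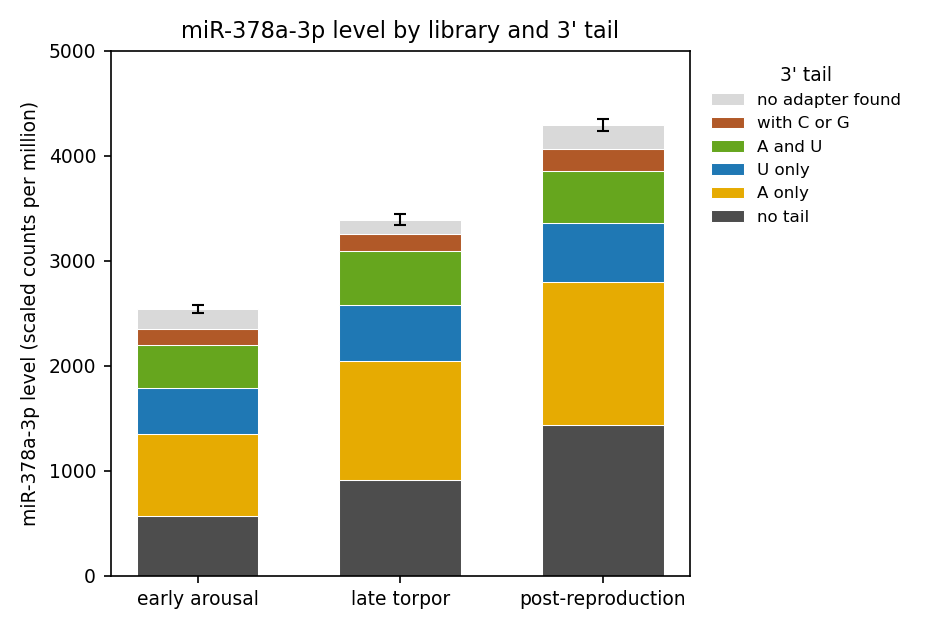
Level of miR-378a-3p (y axis, scaled CPM) in the early arousal, late torpor and post-reproduction libraries (x axis), split by the bases that follow the placed run; error bars are 95% counting intervals of the whole level. Untailed reads, at the foot of each bar, stand at 572 scaled CPM in early arousal, 907 in late torpor and 1437 in post-reproduction.

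Arm use was one-sided in every library. miR-378a-5p had 0 of 16230 reads of both arms in early arousal, which allows a share of up to 0.0185% by the limit of 3 reads and up to 0.0227% by the exact interval. It had 1 of 16620 reads in late torpor, a share of 0.00602% (0.000152 to 0.0335), and 1 of 23257 in post-reproduction, a share of 0.00430% (0.000109 to 0.0240). Over the 3 libraries 2 of 56107 reads came from the 5p arm, or 0.00356% (0.000432 to 0.0129). These intervals overlap, so a difference in arm use between stages was not detectable at this depth. All 3 counts lie under the limit of 3 reads, so no ratio is given for the 5p arm.

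The reads identical to the listed 22-nt 3p form differed more between the libraries than the arm as a whole. The 3′ adapter was found in 15053 reads of the 3p arm in early arousal, 15963 in late torpor and 22032 in post-reproduction, and the bases before it are called the insert. Identical inserts numbered 2025 in early arousal, 2459 in late torpor and 4851 in post-reproduction. They made up 13.5% of the inserts in early arousal (12.9 to 14.0), 15.4% in late torpor (14.8 to 16.0) and 22.0% in post-reproduction (21.5 to 22.6). These shares are taken within a library and do not depend on the scaling, and their intervals did not overlap. Identical inserts stood at 316 scaled CPM in early arousal, 501 in late torpor and 895 in post-reproduction.

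The ratio of identical inserts for early arousal against post-reproduction was 0.353 (0.335 to 0.372) on scaled CPM and 0.418 on placed CPM, more than 2-fold lower on both. For late torpor against post-reproduction it was 0.560 (0.533 to 0.588) and 0.486 on the same 2 scales. For early arousal against late torpor it was 0.631 (0.595 to 0.670) and 0.860. Identical inserts were thus lower in early arousal than in late torpor on both scales, whereas the arm as a whole was not.

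Most 3p inserts ran on past the placed run. A tail here is all that follows that run, so bases after a mismatch count as tail whether or not they were added. Any tail was present on 75.7% of inserts in early arousal, 72.1% in late torpor and 64.7% in post-reproduction. Tails that held C or G are included, at 6.80% in early arousal, 4.90% in late torpor and 5.12% in post-reproduction. The listed form and 5 of its tailed forms are shown with the added bases in capitals, because they are what the shares below count.
listed form: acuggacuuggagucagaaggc
listed form plus A: acuggacuuggagucagaaggcA
listed form plus U: acuggacuuggagucagaaggcU
listed form plus AU: acuggacuuggagucagaaggcAU
listed form plus UUU: acuggacuuggagucagaaggcUUU
listed form plus AUUU: acuggacuuggagucagaaggcAUUU

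The single added A gave the most frequent 3p insert in every library, above the listed form itself. It had 3663 reads in early arousal, 4012 in late torpor and 5452 in post-reproduction, and its share of the inserts was 24.3% in early arousal, 25.1% in late torpor and 24.7% in post-reproduction. Those 3 shares lay within 1 percentage point of each other, and their intervals overlapped. Tails of A alone, at any templated end, made up 33.1% in early arousal (32.3 to 33.9), 34.8% in late torpor (34.1 to 35.6) and 33.4% in post-reproduction (32.8 to 34.0). The A tails thus took about the same part of the inserts in early arousal and in post-reproduction, with late torpor slightly above both.

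U tails differed between the libraries. Tails of U alone made up 18.5% of inserts in early arousal (17.9 to 19.1), 16.5% in late torpor (15.9 to 17.1) and 13.9% in post-reproduction (13.5 to 14.4). Tails of 2 or more U and nothing else took 8.91% (8.46 to 9.37) in early arousal, 7.09% (6.70 to 7.50) in late torpor and 5.28% (4.99 to 5.58) in post-reproduction. Any U in the tail, alone or with other bases, was present in 40.5% in early arousal, 35.7% in late torpor and 29.0% in post-reproduction. In all 3 measures early arousal was highest and post-reproduction lowest, and the intervals did not overlap. Tails of A followed by U took 13.1% in early arousal, 12.1% in late torpor and 9.74% in post-reproduction, again with early arousal highest.

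Inserts with 2 or more U lay nearer to equal levels than the untailed inserts in both comparisons with post-reproduction. The untailed inserts had ratios of 0.398 (0.382 to 0.414) for early arousal against post-reproduction and 0.631 (0.608 to 0.655) for late torpor against post-reproduction on scaled CPM, and 0.470 and 0.547 on placed CPM. Those with 2 or more U had ratios of 0.976 (0.902 to 1.06) for early arousal against post-reproduction and 1.08 (0.990 to 1.17) for late torpor against post-reproduction on scaled CPM. On placed CPM these were 1.15 and 0.932. For early arousal against late torpor the ratio was 0.908 (0.838 to 0.984) on scaled CPM and 1.24 on placed CPM, so its direction depended on the scaling. The untailed ratio for this pair was 0.630 (0.603 to 0.658) on scaled CPM and 0.858 on placed CPM. The form ending in AUUU was higher in hibernation on both scales. It had 284 reads in early arousal, 175 in late torpor and 116 in post-reproduction. Its ratio was 2.07 (1.66 to 2.60) for early arousal against post-reproduction and 1.67 (1.31 to 2.13) for late torpor against post-reproduction on scaled CPM, and 2.45 and 1.45 on placed CPM. For early arousal against late torpor it was 1.24 (1.03 to 1.51) and 1.69. The form ending in UUU had 562 reads in early arousal, 540 in late torpor and 489 in post-reproduction. AUUU and UUU were singled out after their values were seen.

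**Figure D2:**
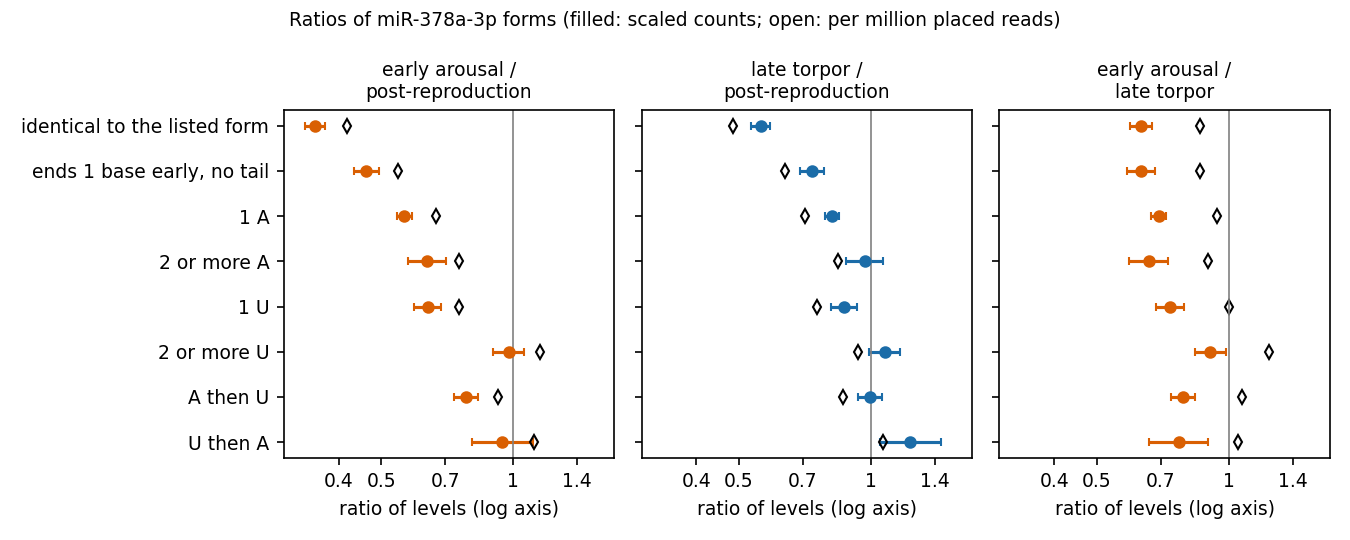
Ratio of the level of each miR-378a-3p form (x axis, log scale) for early arousal over post-reproduction, late torpor over post-reproduction and early arousal over late torpor; filled points are scaled CPM with 95% counting intervals, open diamonds are placed CPM. Identical inserts have the lowest scaled ratios, 0.353 in the early arousal and 0.560 in the late torpor panel against post-reproduction, and tails of 2 or more U lie near 1 there, at 0.976 and 1.08.

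Insert length is the placed part plus the tail, so it shows the same reads in another form and is not a separate result. The 22-nt insert, the length of the listed form, made up 21.4% in early arousal, 23.3% in late torpor and 29.5% in post-reproduction. The 23-nt insert was the most frequent length in each library, at 35.8% in early arousal, 36.0% in late torpor and 34.9% in post-reproduction. The longest inserts that could be measured, of 26 nt, made up 5.98% in early arousal, 3.70% in late torpor and 2.42% in post-reproduction. At 26 nt the adapter bases had to match in full, and adapter mismatches were most frequent in post-reproduction. The part of this in the 26-nt shares was not tested. The mean insert was 23.0 nt in early arousal, 22.9 nt in late torpor and 22.7 nt in post-reproduction. The mean number of tail bases on tailed inserts was 1.89 in early arousal, 1.75 in late torpor and 1.62 in post-reproduction.

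**Figure D3:**
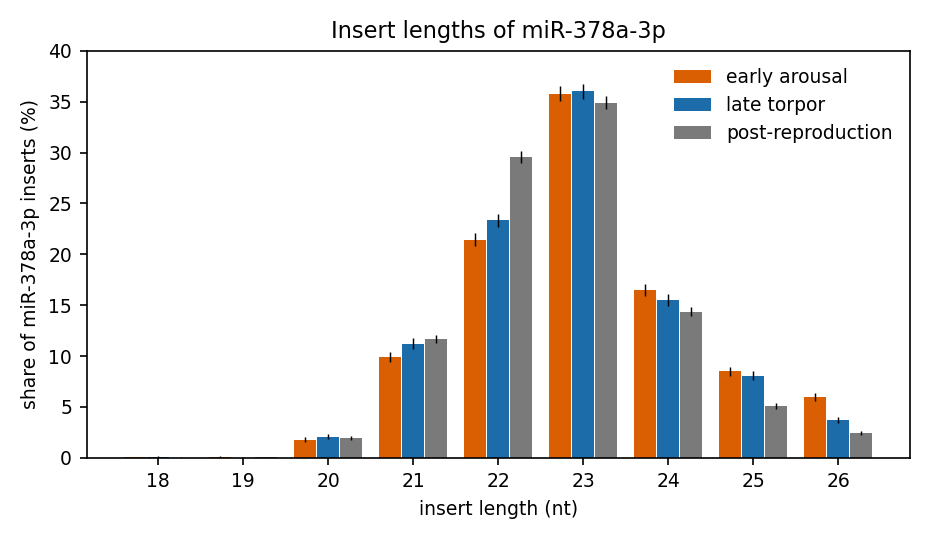
Share of miR-378a-3p inserts (y axis, %) by insert length (x axis, nt) in early arousal, late torpor and post-reproduction; error bars are exact 95% intervals. At 22 nt post-reproduction is highest, at 29.5%, and at 26 nt early arousal is highest, at 5.98%.

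Reads of 30 bases show no adapter behind an insert of more than 26 nt, so longer tails fall outside these shares. No adapter was found in 7.25% of the 3p reads in early arousal, 3.95% in late torpor and 5.26% in post-reproduction. Among them, the listed form followed by 4 or more A or U made up 4.18% of the 3p reads in early arousal, 1.73% in late torpor and 1.57% in post-reproduction. The unmeasured reads therefore include long A or U tails, most often in early arousal. Mismatches also differed, in another order of the libraries in the adapter than in the read. In the adapter 1.85% of bases were mismatched in early arousal, 1.77% in late torpor and 3.56% in post-reproduction. Reads with 1 mismatch in the first 18 bases, which the rule left out, came to 5.55% of the 3p reads in early arousal, 4.83% in late torpor and 4.07% in post-reproduction. The part of the adapter mismatches in the tail shares was not tested beyond an adapter search with no mismatch, in which identical inserts made up 13.5% in early arousal, 15.7% in late torpor and 22.2% in post-reproduction.

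The base at which the placed run ended differed little in most inserts. The last base of the uninterrupted match to the scaffold was that of the listed form in 72.5% of inserts in early arousal, 72.2% in late torpor and 74.3% in post-reproduction. It lay 1 base earlier for 20.3% in early arousal, 21.6% in late torpor and 20.9% in post-reproduction. It lay 2 or more bases earlier for 7.0% in early arousal, 5.97% in late torpor and 4.48% in post-reproduction, with intervals that did not overlap. A mismatch inside a longer insert also ends the run early, and its part in these shares was not tested. Each of these ends varied by fewer percentage points between the libraries than the untailed share did.

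A smaller set of reads began 1 base later, at base 160831, and so carried the other seed. This start had 1648 reads in early arousal, 1595 in late torpor and 2597 in post-reproduction. Of the reads that began from 2 bases before to 3 bases after the listed start, they made up 9.18% in early arousal, 8.73% in late torpor and 10.0% in post-reproduction. The listed start itself took 90.4% in early arousal, 91.0% in late torpor and 89.7% in post-reproduction. The ratio of the shifted start was 0.537 (0.505 to 0.572) for early arousal against post-reproduction, 0.679 (0.637 to 0.723) for late torpor against post-reproduction and 0.792 (0.739 to 0.849) for early arousal against late torpor. On placed CPM these were 0.635, 0.588 and 1.08, so the last one changed direction.

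The shifted-start reads were tailed more often and mainly with U. No tail was found on 6.49% of their inserts in early arousal, 9.99% in late torpor and 11.3% in post-reproduction. Tails of U alone made up 41.7% in early arousal, 39.3% in late torpor and 40.2% in post-reproduction, above the listed start in each library. Tails of A alone made up 19.2% in early arousal, 21.6% in late torpor and 21.5% in post-reproduction, below the listed start in each library. Any U was present in 73.5% of the shifted inserts in early arousal (71.3 to 75.7), 67.5% in late torpor (65.1 to 69.8) and 65.7% in post-reproduction (63.8 to 67.5). As for the listed start, early arousal was highest in any U and lowest in untailed inserts, but the intervals of late torpor and post-reproduction overlapped in both measures.

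**Figure D4:**
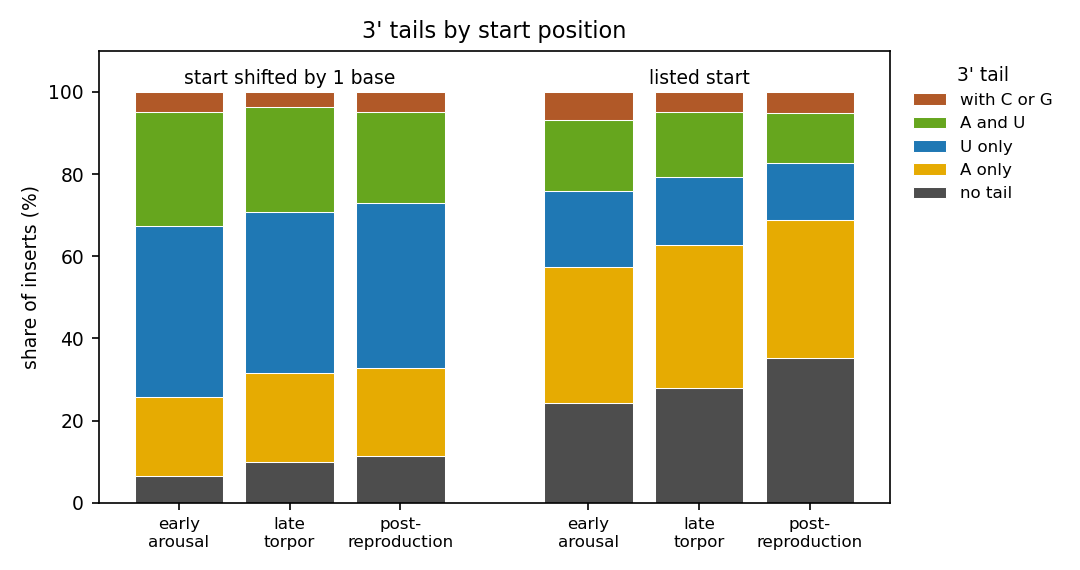
Share of inserts (y axis, %) by tail class for the miR-378a-3p start shifted by 1 base and for the listed start, each in early arousal, late torpor and post-reproduction (x axis). At the shifted start, tails of U alone take 41.7% in early arousal, 39.3% in late torpor and 40.2% in post-reproduction, against 18.5%, 16.5% and 13.9% in these libraries at the listed start.

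Compared with other abundant liver small RNAs, miR-378a-3p was heavily A-tailed. The comparison covered 52 other start groups with at least 1000 inserts in each library, after near-copies of more abundant groups had been left out. A near-copy was at least 20 times rarer than a group it matched with at most 3 mismatches or a start shifted by up to 2 bases. Less rare start variants of the same RNA stayed in as separate groups, so the 52 are not all different RNAs. Their median share of inserts with A alone was 6.38% in early arousal, 5.88% in late torpor and 5.26% in post-reproduction. Only 1 of the 52 lay above miR-378a-3p in early arousal, and 0 did in late torpor and in post-reproduction. That 1 group, start group C below, was close to miR-378a-3p in each library. Its share was 35.0% in early arousal, 34.1% in late torpor and 33.4% in post-reproduction. The median untailed share of the others was 71.2% in early arousal, 73.4% in late torpor and 76.0% in post-reproduction, and 7 of the 52 lay below miR-378a-3p in each library. In 6 of these 7 at most 8.51% of inserts were untailed, at most 0.420% carried A alone and at most 16.6% U alone in any library. Most of their inserts therefore held other or mixed bases after the placed run, which count as a tail here whether or not they were added. Whether the placed run of these 6 stops short of their mature form was not tested. Other groups within the medians held such bases too. In the group beginning ugagguaguagguuguau 46.9% of inserts in early arousal had a tail, but only 9.13% A alone and 0.732% U alone. The U tails of miR-378a-3p ranked lower. The median share of U alone among the others was 4.37% in early arousal, 4.65% in late torpor and 4.07% in post-reproduction, and 8 groups in early arousal, 9 in late torpor and 11 in post-reproduction lay above miR-378a-3p.

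Most of these groups also had a lower untailed share in early arousal than in post-reproduction, by a smaller difference than miR-378a-3p. Untailed inserts of miR-378a-3p were 11.1 percentage points less frequent in early arousal than in post-reproduction (24.3% against 35.3%). The median difference, early arousal minus post-reproduction, was -2.38 points over the 52 others, of which 40 were below 0 and 1 lay below miR-378a-3p. The groups with at most 8.51% untailed inserts in any library are among the 52 and could not have fallen by 11.1 points. For late torpor minus post-reproduction the difference was -7.48 points in miR-378a-3p and -1.23 at the median of the others, with 2 groups lower. For early arousal minus late torpor it was -3.58 and -1.41 points, with 3 groups lower. The share of U alone was 4.53 points higher in early arousal than in post-reproduction for miR-378a-3p and 0.561 points higher at the median of the others, of which 2 lay above it. These are ranks among groups of the same 3 libraries, with no test.

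**Figure D5:**
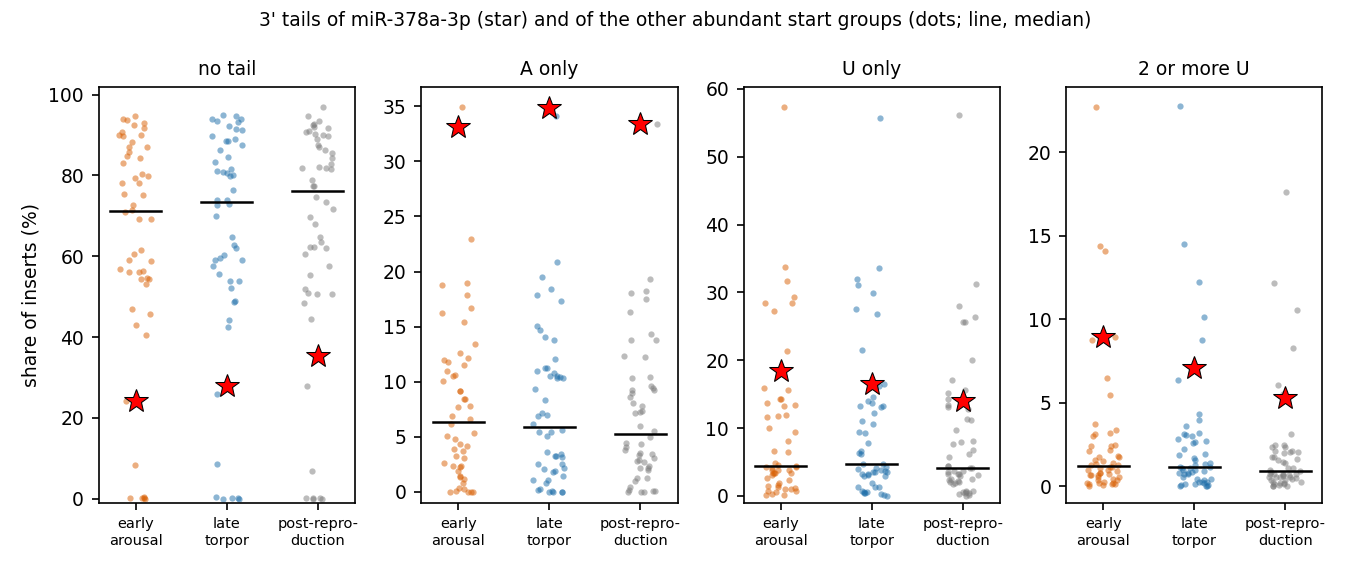
Share of inserts (y axis, %) with no tail, A only, U only and 2 or more U in early arousal, late torpor and post-reproduction (x axis); red stars are miR-378a-3p, dots are the 52 other start groups and lines their medians. miR-378a-3p lies near the top of the A-only panel, at 33.1% in early arousal, 34.8% in late torpor and 33.4% in post-reproduction, and low in the no-tail panel, at 24.3% in early arousal, 27.9% in late torpor and 35.3% in post-reproduction.

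The 5 start groups nearest to miR-378a-3p were chosen by the Euclidean distance of their log2 ratios against post-reproduction, over the 3 libraries and the 123 groups left without near-copies of a more abundant group. One near-copy, of the miR-122-5p group, lay between the first and the second of them, at a distance of 0.102. They are shown by their most frequent placed form, since the files give them no name.
start group A: uacaguagucugcacauugguu
start group B: uaccacaggguagaaccacgga
start group C: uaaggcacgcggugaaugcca
start group D: ugagguaguagguugugugguuu
start group E: uguaaacauccucgacuggaagcu

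Start group A lay at a distance of 0.0143, with ratios of 0.596 for early arousal against post-reproduction and 0.786 for late torpor against post-reproduction. It was far less abundant than miR-378a-3p, at 164 scaled CPM in early arousal, 216 in late torpor and 274 in post-reproduction. Start groups B to E lay at distances of 0.104, 0.155, 0.172 and 0.217. Their ratios ran between 0.594 and 0.675 for early arousal against post-reproduction and between 0.804 and 0.852 for late torpor against post-reproduction. All 5 were thus lower in both hibernation libraries on scaled CPM, by construction of the choice. Start groups A and B are start variants of more abundant groups and were kept because they were less than 20 times rarer. The more abundant groups lay further from miR-378a-3p, at distances of 0.524 for that of A and 0.594 for that of B.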

How the data were processed

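Per the labels' protocols, about 10 ug of mixed liver RNA per stage was cut at 18 to 30 nt, ligated to adapters and amplified by 15 PCR cycles. The authors deposited 1 table of placed reads of 30 bases; per the file headers an entry consists of sequence, whole-number read count and stage. The sources used here name no aligner, build or filters. All 866747 lines could be read, and 0 reads had differing counts at different positions. Levels were scaled by the trimmed mean of M-values (30% and 5% trimmed) in Python 3.11.15 with numpy 2.4.6, because the counts sit inside text entries. The planned scaling over named microRNAs, the lists of other microRNAs and the cell type markers could not be used without a sequence table, so start groups replaced them. Inserts of 18 to 26 nt were read with 5 adapter bases and 1 mismatch allowed (4 bases without mismatch at 26 nt). A tail is what follows the run placed on GeneScaffold 5150. Intervals are exact Poisson, Clopper-Pearson and conditional binomial (scipy 1.17.1), the arm duplex came from ViennaRNA 2.7.2, and figures from matplotlib 3.10.9. On simulated data 40 of 40 changes of 3-fold were found with 0 false calls, and 4995 of 5000 tails were read correctly. The simulated tails were shorter than AUUU and the simulated adapter errors rarer than in the libraries, so the longest measured inserts were not covered. The members and lists were chosen with earlier results of these data known. Named start groups are the 5 nearest by ratio, near-copies left out. Floors are 3 counts.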

Additional observations from a re-analysis of the deposited data

How the results depend on the processing

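No paired analysis was possible because each stage has 1 library. Of 120 alternatives, 86 moved a value by less than its counting interval or a count by less than 1.5 times, 32 moved it further and 2 reversed it. The cause was not tested. The log2 ratio of miR-378a-3p for early arousal against late torpor (-0.42) reversed to 0.042 with plain CPM of start-group reads and 0.028 with placed CPM. It was -0.15 with CPM of start-group reads without miR-122, -0.66 for identical inserts and -0.47 for reads with an adapter. For early arousal against post-reproduction (-0.76) the same 5 settings gave -0.51, -0.52, -0.65, -1.50 and -0.79, median-of-ratios factors -0.81, and factors without near-copies -0.70. For late torpor against post-reproduction (-0.34) the values were -0.55 with plain and -0.55 with placed CPM, -0.49 without miR-122, -0.84 for identical inserts, -0.38 with median-of-ratios factors and -0.30 without near-copies. With distinct reads of at least 2 counts, the share of A tails was 34.1%, 35.8% and 34.3% in early arousal, late torpor and post-reproduction, and identical inserts made up 22.6% in post-reproduction. With no adapter mismatch, A tails were 33.9% in early arousal and 34.2% in post-reproduction. An 8-base adapter gave 21.4% identical and 34.5% untailed inserts in post-reproduction. The 5p share was 0 in late torpor for identical inserts and for at least 2 counts, and 0 in post-reproduction for at least 2 counts. Start groups at least 1.5-fold lower numbered 6, 6 and 8 for early arousal against late torpor with plain CPM, placed CPM and without miR-122, against 19, and 12 on the first 2 of these for early arousal against post-reproduction, against 24. Factors without near-copies, the start-group counts under other settings and tails read against the longest run anywhere were chosen after seeing the data. Uniquely placed reads gave no value, since 0 of the 3p reads were placed once, and the 5p ratios have none at 0 or 1 read. Depth limits the 5p arm most, with 2 reads in all.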
